A study of Mus musculus with 19 samples.

Results

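The genes described here were the chemokine receptors Ccr1, Ccr2, Ccr7, Cx3cr1, Cxcr2 and Cxcr4, the chemokine Cxcl12 and its atypical receptor Ackr3, which are 8 of the 27998 genes measured. They were chosen by name as the leukocyte chemokine receptors and the CXCL12 axis, and all 8 were found by gene symbol in each of the 19 libraries. Each library held single cells from the tenotomy site of mice in a burn/tenotomy model of heterotopic ossification (HO), the formation of bone in soft tissue, and transcripts were counted as unique molecular identifiers (UMIs) with 10x Genomics 3' chemistry. The groups were day 0 (4 libraries), day 3 (3 libraries), day 7 (4 libraries), day 21 (4 libraries) and p7N3 (4 libraries). p7N3 is a CD47-activating peptide given by intraperitoneal injection at 10 mg/kg daily from 3 days before to 3 days after injury, and the labels place its harvest at day 7 for replicates 1 to 3 and give no harvest day for replicate 4.

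According to the labels, every mouse had a scald burn over 30% of the body surface with Achilles tenotomy, and this wording stands on the day 0 libraries too, although the methods describe that time point as uninjured. The labels name C57 and LysmCre/Tgfb1fx/fx mice for the untreated time course without saying which library came from which genotype. LysM-Cre acts in myeloid cells, where it would remove the floxed Tgfb1 gene, and genotype could not be used here as a term. No vehicle is named for the day 7 libraries in the labels, whereas the paper compared its p7N3 cells with cells of PBS-treated mice. Whether the day 7 libraries are that PBS group cannot be told from the labels. The labels do not say whether libraries came from separate animals. The study's reporting summary states that replicates at each time point served to assess variability between mice, without naming single libraries. The p-values measure the spread between libraries.

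Chemokines are small secreted proteins that bind G protein-coupled receptors and direct the movement of leukocytes. CCR2 binds CCL2, CCL7 and CCL12 and is needed for classical monocytes to leave the bone marrow, whereas CX3CR1, the fractalkine receptor, marks non-classical monocytes and many tissue macrophages. CCR1 binds CCL3, CCL5 and related ligands on monocytes and neutrophils, CXCR2 is the receptor through which neutrophils follow CXCL1, CXCL2, CXCL3 and CXCL5, and CCR7 guides mature dendritic cells and lymphocytes to lymph nodes along CCL19 and CCL21. CXCL12 is made mainly by stromal and endothelial cells and signals through CXCR4, which is found on most leukocytes. ACKR3 also binds CXCL12 but takes it up rather than signalling through G proteins, and so acts as a scavenger.

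In GRCm38 the genes lie on 4 chromosomes. Cxcr2 (ENSMUSG00000026180, chromosome 1, 74153989 to 74161246, plus strand), Ackr3 (ENSMUSG00000044337, chromosome 1, 90203980 to 90216751, plus strand) and Cxcr4 (ENSMUSG00000045382, chromosome 1, 128588199 to 128592293, minus strand) share chromosome 1. Cxcl12 (ENSMUSG00000061353) spans 117168535 to 117181367 on the plus strand of chromosome 6, and Ccr7 (ENSMUSG00000037944) spans 99144196 to 99155077 on the minus strand of chromosome 11. Cx3cr1 (ENSMUSG00000052336, 119901616 to 120069879, minus strand), Ccr1 (ENSMUSG00000025804, 123962124 to 123968692, minus strand) and Ccr2 (ENSMUSG00000049103, 124101950 to 124113557, plus strand) lie on chromosome 9. Ccr2 starts 133257 bases beyond Ccr1. Whether reads of Ccr1, Ccr2 and related receptor genes were split between them was not tested.

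The promoters of 3 members are printed because their genes moved in different directions after injury: Cxcl12 and Ackr3 moved oppositely in stromal cells, and Ccr2 was the receptor with the widest change in monocytes and macrophages. They are RefSeq sequences of GRCm38.p6, from 250 bases before to 50 bases after the start of the gene in RefSeq, 5′ to 3′ along the gene, with each CG dinucleotide in capitals. The RefSeq start of Ccr2 lies downstream of the GENCODE start given above, so that its window covers the first bases of the gene as GENCODE places it.
Cxcl12, chr6:117168285-117168584, plus strand: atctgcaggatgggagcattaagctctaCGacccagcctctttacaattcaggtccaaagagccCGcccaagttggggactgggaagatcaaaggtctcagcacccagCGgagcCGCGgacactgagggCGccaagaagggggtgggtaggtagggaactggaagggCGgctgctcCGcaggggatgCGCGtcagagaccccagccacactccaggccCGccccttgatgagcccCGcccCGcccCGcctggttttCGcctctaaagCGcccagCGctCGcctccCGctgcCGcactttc
Ackr3, chr1:90203730-90204029, plus strand: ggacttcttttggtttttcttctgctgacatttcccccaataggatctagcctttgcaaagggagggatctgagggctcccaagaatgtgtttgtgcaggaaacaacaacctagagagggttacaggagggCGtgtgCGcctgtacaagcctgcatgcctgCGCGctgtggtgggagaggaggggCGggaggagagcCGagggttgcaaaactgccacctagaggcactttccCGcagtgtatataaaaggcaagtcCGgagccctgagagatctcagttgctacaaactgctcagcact
Ccr2, chr9:124101933-124102232, plus strand: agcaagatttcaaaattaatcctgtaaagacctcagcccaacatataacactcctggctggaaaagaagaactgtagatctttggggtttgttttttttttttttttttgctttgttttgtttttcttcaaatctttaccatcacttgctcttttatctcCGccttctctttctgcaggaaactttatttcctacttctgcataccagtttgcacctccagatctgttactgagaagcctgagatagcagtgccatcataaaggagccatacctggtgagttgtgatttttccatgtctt
Searched for the letters CG, which read the same on both strands, the Cxcl12 window held 20, the Ackr3 window 8 and the Ccr2 window 1. Of 32851 promoters of the same length, 94.6% held at least 1 CG and the median was 7, with fewer CG than Cxcl12 in 73.5%, than Ackr3 in 51.4% and than Ccr2 in 5.4%. Promoters were matched for 7 of the 8 members, and among the others Cxcr4 held 20 CG, Cx3cr1 5, Cxcr2 2 and Ccr1 1.

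The libraries held 39541 cells after filtering, from 3561 at day 0 to 13414 at day 7, and between 3019467 and 39870492 UMIs each. The day 0 libraries were the shallowest, with at most 5383855 UMIs. Cells were clustered with chemokine and chemokine receptor genes kept out of the variable genes, and classes were named from marker genes. Csf1r and Cd68, which define monocytes and macrophages, were at 499 to 1339 and 334 to 1075 UMIs per 1000000 UMIs of the class (CPM) in the monocyte/macrophage-like class. Pecam1 and Cdh5 of vessel lining cells were at 836 to 1221 and 708 to 1519 CPM in the endothelial-like class, and Pdgfra at 110 to 428 CPM in the stromal-like class. In the granulocyte-like class the neutrophil gene Ly6g was at 0 in some libraries, although S100a8 never fell below 4166 CPM there. At most 22 cell barcodes were shared between any pair of libraries. The monocyte/macrophage-like class held 356 cells at day 0, 3571 at day 3, 4713 at day 7, 663 at day 21 and 4491 with p7N3. A level in CPM is computed from the summed UMIs of a class in 1 library, so that fewer expressing cells and less RNA per cell cannot be told apart within a sum.

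Each member had its highest levels in particular classes, and the plot of levels by class shows the separation of receptors from the CXCL12 axis. At day 7, the time point with most classes, Ccr7 was highest in dendritic cell-like cells at 477 ± 98.7 CPM (SD, n = 4), with T/NK lymphocyte-like cells next at 48.2 ± 38.5 CPM and no overlap between them. Ccr2 was at 406 CPM in granulocyte-like, 400 CPM in T/NK lymphocyte-like, 360 CPM in dendritic cell-like and 291 CPM in monocyte/macrophage-like cells, and each of these overlapped the next, whereas plasmacytoid dendritic cell-like cells lay below all of them at 144 CPM. The granulocyte-like values at day 7 rest on 2 libraries and 29 cells, and whether all of these were granulocytes was not tested. Ccr1 ran from 302 ± 36.5 CPM in granulocyte-like cells (n = 2) to 97.8 ± 10.1 CPM in monocyte/macrophage-like cells (n = 4) without overlap. Cxcr4 stood in the same order, at 243 CPM in granulocyte-like, 168 CPM in monocyte/macrophage-like and 111 CPM in dendritic cell-like cells, with the last overlapping T/NK lymphocyte-like cells at 110 CPM. Cx3cr1 was at 61.7 ± 11.7 CPM in monocyte/macrophage-like cells, overlapping granulocyte-like cells at 45.4 CPM, and a higher mean of 110 CPM in erythrocyte-like cells came from 2 libraries that ranged from 33.3 to 187 CPM.

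Cxcl12 and Ackr3 belonged to non-immune cells. At day 7 Cxcl12 was at 1017 ± 157 CPM in stromal-like cells, above endothelial-like cells at 647 ± 123 CPM without overlap, and endothelial-like cells overlapped tenocyte-like cells at 555 ± 114 CPM. Pericyte/smooth muscle-like cells followed at 149 CPM, below both. Ackr3 was at 113 ± 56.0 CPM in lymphatic endothelial-like cells and 107 ± 23.1 CPM in stromal-like cells, which overlapped, and then at 39.9 CPM in endothelial-like and 33.7 CPM in tenocyte-like cells. Over the 11 classes compared across all groups, the class with the highest level was also the class with the highest share of cells with a UMI for 7 of 8 members. The exception was Cxcl12. Its leading class by CPM differed between groups, with means of 2371 CPM in endothelial-like and 527 CPM in stromal-like cells at day 0 but 632 and 1145 CPM at day 3.

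**Figure D1:**
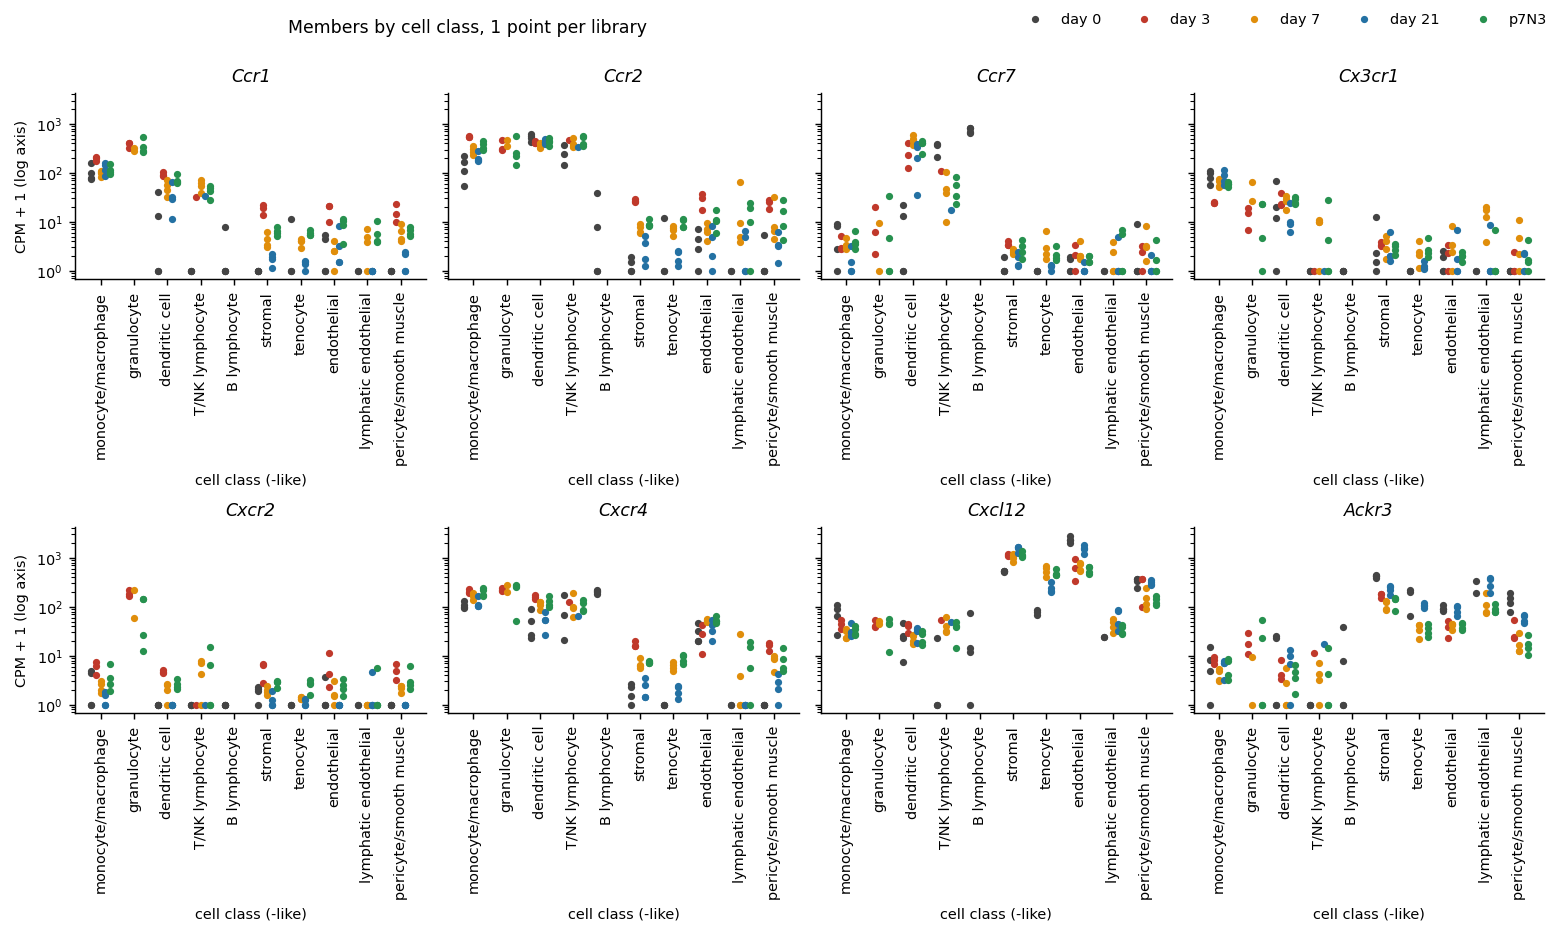
Level of each of the 8 members (CPM + 1, log axis) in 10 cell classes, with 1 point per library coloured by group. Ccr1, Ccr2, Cx3cr1 and Cxcr4 fill the myeloid classes, Ccr7 is high in dendritic cell-like and B lymphocyte-like cells, and Cxcl12 and Ackr3 fill the stromal and vascular classes.

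Lineages were then compared within libraries, with a term for each library in edgeR's quasi-likelihood model and Benjamini-Hochberg adjustment over all genes tested. Between stromal-like and monocyte/macrophage-like cells at day 7, 77% of the genes tested differed, and all 8 members did. Cxcl12 was higher in stromal-like cells by 4.86 (SE 0.10, adjusted p = 9.507e-13) and Ackr3 by 4.65 (SE 0.16, adjusted p = 3.596e-11) on the log2 scale, while the differences were -5.30 for Ccr1, -5.91 for Ccr2, -5.03 for Cx3cr1 and -5.22 for Cxcr4 (highest adjusted p = 6.152e-10). Ccr7 differed by -1.10 (adjusted p = 0.003989) and Cxcr2 by -0.86 (adjusted p = 0.02516), the latter from at most 2.05 CPM and lost without day 7 replicate 1 or 4. The Cxcr2 call was also lost with DESeq2 (adjusted p = 0.1724) and with edgeR without the library term (0.05362) or without the filter on low counts (0.05693). Scaling by library size alone (0.1653) and keeping replicates 1 to 3 only (0.1045) ended it too. Between dendritic cell-like and monocyte/macrophage-like cells at day 7, 46.7% of genes differed and 5 of 6 members tested did. Ccr7 was higher in dendritic cell-like cells by 7.58 (SE 0.14, adjusted p = 6.369e-16), Ccr1 differed by -0.93 (adjusted p = 8.669e-06), Cx3cr1 by -1.14 (adjusted p = 4.297e-05) and Cxcr4 by -0.53 (adjusted p = 0.0001979). The difference of Ccr2 was 0.38 (SE 0.08, adjusted p = 0.0006057), with libraries that overlapped, and it turned to -0.07 (adjusted p = 0.4826) when chemokine genes were allowed to shape the clusters. Between endothelial-like and stromal-like cells at day 7, 58.5% of genes and 4 of 7 members tested differed, with Cxcr4 higher in endothelial-like cells by 2.98 (SE 0.16, adjusted p = 1.079e-08), Cxcl12 at -0.84 (adjusted p = 1.607e-05) and Ackr3 at -1.59 (adjusted p = 1.334e-07). The fourth, Ccr1, lay at -1.17 with an adjusted p = 0.04635, from at most 5.15 CPM in any library of either class, and leaving out day 7 replicate 1, 2 or 3 ended the call. DESeq2 did not call it (adjusted p = 0.1021), nor did edgeR without the library term (0.13) or with library size alone (0.08239). With chemokine genes allowed to shape the clusters it did not pass either (0.06369).

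Ccr2, the receptor of monocyte recruitment, was higher at day 3 and day 7 than at day 0 in monocyte/macrophage-like cells. At day 0 it was at 218, 169, 53.4 and 109 CPM in replicates 1 to 4, at day 3 at 570, 528 and 549 CPM, at day 7 at 356, 303, 272 and 232 CPM and at day 21 at 282, 183, 188 and 172 CPM. The day 3 and day 7 libraries all lay above the day 0 libraries, whereas those of day 21 overlapped them. Against day 0, the log2 fold change of Ccr2 was 2.00 (SE 0.25, adjusted p = 3.47e-05) at day 3 and 1.23 (SE 0.24, adjusted p = 0.0008213) at day 7 by edgeR's quasi-likelihood test. At day 21 it was 0.63 (SE 0.26, adjusted p = 0.08544), and leaving out day 0 replicate 1 raised it to 1.04 (adjusted p = 0.01096). Of all genes tested in this class, 53.8% differed from day 0 at day 3, 35.4% at day 7 and 27.1% at day 21, beside 4 of 5, 3 of 6 and 1 of 5 members tested. The share of cells with a Ccr2 UMI went from 15.8% at day 0 to 84.4% at day 3, 44.2% at day 7 and 35.6% at day 21. Median UMIs per cell also differed, at 3681, 9678, 5269 and 7548, and after thinning every cell to 1500 UMIs the shares were 8.79%, 49.7%, 28.3% and 20.2%. The same share in stromal-like cells was 0.142% at day 0, 3.63% at day 3 and 0.856% at day 7 after thinning.

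Cx3cr1 moved the other way at day 3. It was at 98.8, 76.4, 111 and 56.4 CPM at day 0 and at 23.6, 23.6 and 23.9 CPM at day 3, so that the groups were apart, with a log2 fold change of -1.80 (SE 0.18, adjusted p = 4.366e-06). The 3 day 3 libraries were nearly equal to each other. By day 7 Cx3cr1 was at 52.5, 68.3, 74.9 and 51.2 CPM (log2 fold change -0.28, adjusted p = 0.315, 95% interval -0.71 to 0.15) and by day 21 at 89.1, 116, 56.1 and 67.9 CPM (log2 fold change 0.01, adjusted p = 0.9778), overlapping day 0 both times. Classing cells by their UMIs after thinning, Ccr2 without Cx3cr1 was found in 8.48% of monocyte/macrophage-like cells at day 0, 48.0% at day 3, 25.3% at day 7 and 16.7% at day 21, averaged over libraries. Cx3cr1 without Ccr2 was found in 6.84%, 1.33%, 4.63% and 6.77% of cells, and both in 0.309%, 1.76%, 3.02% and 3.54%.

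Ccr1, an inflammatory chemokine receptor, was at 156, 101, 76.3 and 74.1 CPM at day 0 and at 208, 175 and 202 CPM at day 3, with no overlap and a log2 fold change of 0.92 (SE 0.19, adjusted p = 0.001415). At day 7 it was at 102, 99.5, 83.2 and 106 CPM, within the range of day 0, with a log2 fold change of 0.08 (adjusted p = 0.7927, 95% interval -0.32 to 0.48). Leaving out day 0 replicate 1, the highest at day 0, raised that value to 0.53 (adjusted p = 0.03859). Cxcr4, the CXCL12 receptor, was at 132, 96.5, 95.3 and 109 CPM at day 0, at 199, 192 and 234 CPM at day 3 and at 181, 138, 190 and 163 CPM at day 7. Both later groups lay above day 0, with log2 fold changes of 0.98 (SE 0.14, adjusted p = 8.822e-05) and 0.82 (SE 0.15, adjusted p = 0.0004145). At day 21 neither receptor passed the test, with log2 fold changes of 0.33 for Ccr1 (adjusted p = 0.3161) and 0.21 for Cxcr4 (adjusted p = 0.4196). Cxcr4 there was at 102, 104, 162 and 108 CPM. Summed granulocyte markers in this class ranged from 194 to 442 CPM at day 0, 2176 to 3169 CPM at day 3, 309 to 628 CPM at day 7 and 147 to 181 CPM at day 21, and their part in the receptor values was not tested.

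Cxcl12 was low in monocyte/macrophage-like cells but was counted in all libraries. It was at 26.0, 88.4, 64.8 and 106 CPM at day 0, at 42.9, 53.0 and 34.4 CPM at day 3, at 31.8, 21.9, 34.5 and 21.7 CPM at day 7 and at 28.7, 45.9, 28.9 and 24.4 CPM at day 21, and day 0 overlapped each later group. The log2 fold change was -0.44 at day 3 (adjusted p = 0.2711, 95% interval -1.15 to 0.27). Leaving out day 0 replicate 1 gave -0.78 (adjusted p = 0.02772). The later values were -1.01 (SE 0.31, adjusted p = 0.01761) at day 7 and -0.92 (SE 0.33, adjusted p = 0.04338) at day 21. The day 7 call ended without day 0 replicate 2, 3 or 4 (adjusted p = 0.104, 0.05671 and 0.1819), and the day 21 call ended without day 0 replicate 2, 3 or 4 or day 21 replicate 1, 3 or 4, and with chemokine genes allowed to shape the clusters (adjusted p = 0.05714). Both calls also ended with replicates 1 to 3 only (edgeR adjusted p = 0.2019 at day 7 and 0.351 at day 21). Over all cells of a library Cxcl12 averaged 929 CPM at day 0, 428 CPM at day 3, 563 CPM at day 7 and 728 CPM at day 21. The part of UMIs from other cells in the monocyte/macrophage-like values was not tested.

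The make-up of the class differed strongly between days, and the members differed between its clusters. A cluster led by Ccl8 and Folr2, genes of resident-type macrophages, held 87.1% of the class at day 0, 1.74% at day 3, 12.2% at day 7 and 36.9% at day 21. At day 3, 45.3% of cells were in a cluster led by Chil3 and Ly6c2, genes of inflammatory monocytes, and 47.0% in one led by Cbr2 and Pf4. At day 7 the largest clusters were led by Ms4a7, Apoe and C1q genes (35.1%), by Spp1 and Arg1 (24.3%) and by Ms4a4c and MHC class II genes (16.4%). Ccr2 averaged 1055 ± 211 CPM in the Chil3/Ly6c2 cluster (13 libraries), 800 ± 176 CPM in the Ms4a4c cluster, 232 CPM in the Cbr2/Pf4 cluster and 140 CPM in the Ms4a7 cluster. Cx3cr1 had a different order, at 109 ± 60.5 CPM in the Ms4a7 cluster, 48.8 CPM in the Chil3/Ly6c2 cluster and 35.1 CPM in the Ccl8/Folr2 cluster. Within the Ccl8/Folr2 cluster alone the day 3 log2 fold changes of Ccr1, Ccr2 and Cxcr4 were -0.39 (adjusted p = 0.2686), -0.06 (adjusted p = 0.9046) and -0.17 (adjusted p = 0.6023), none of which passed the test. The day 3 log2 fold change of Cx3cr1 lay between -2.38 and -1.55 in all 16 other settings, this cluster among them. Its highest adjusted p there, by edgeR or DESeq2, was 0.0006433. The cluster held 310 cells at day 0 and 62 at day 3 over all libraries of the group. At day 7 the same cluster gave 1.29 for Ccr2 (adjusted p = 0.0001615) and 1.10 for Cxcr4 (adjusted p = 4.703e-05), close to the values of the class, and -1.30 for Cx3cr1 (adjusted p = 0.002279). At day 21 it gave 0.95 for Ccr2 (adjusted p = 0.006702), which had not passed in the class.

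**Figure D2:**
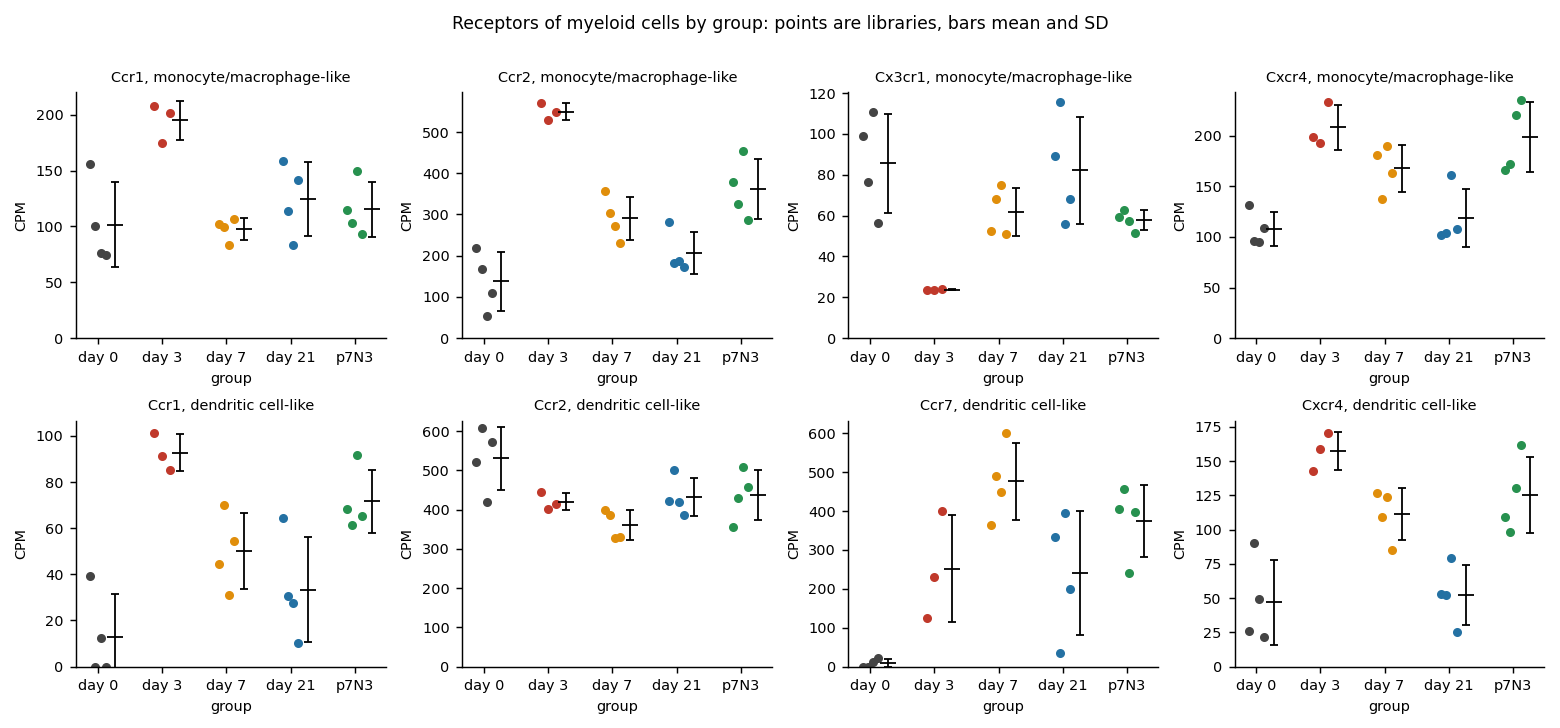
Levels (CPM) of 4 receptors in monocyte/macrophage-like cells (upper row) and dendritic cell-like cells (lower row), with points for libraries and bars for the mean and SD of each group. In monocyte/macrophage-like cells the day 3 libraries lie at 528 to 570 CPM for Ccr2, above all 4 day 0 libraries at 53.4 to 218 CPM, whereas for Cx3cr1 they lie at 23.6 to 23.9 CPM, below all 4 day 0 libraries.

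Cxcr2, the neutrophil receptor for CXCL1, CXCL2, CXCL3 and CXCL5, was highest in the granulocyte-like class at day 3, above a mean of at most 5.01 CPM in the other classes and without overlap. It was at 181, 224 and 169 CPM there and at 5.19, 3.00 and 6.31 CPM in monocyte/macrophage-like cells of the same libraries, a log2 difference of 5.58 (SE 0.19, adjusted p = 1.748e-12). Of all genes tested, 25.9% differed between these classes, beside 6 of 8 members. A Cxcr2 UMI was found in 57.7% of granulocyte-like cells and 4.98% of monocyte/macrophage-like cells, or 27.4% and 0.778% after thinning. Ccr1 was also higher in granulocyte-like cells, at 402, 318 and 406 CPM (log2 difference 1.20, SE 0.09, adjusted p = 1.993e-08). Ackr3 was at 10.0, 16.1 and 28.4 CPM in granulocyte-like and 5.79, 8.53 and 7.37 CPM in monocyte/macrophage-like cells, apart in each case (log2 difference 1.67, SE 0.26, adjusted p = 0.0001187). Ccr2 was at 296 to 464 CPM in granulocyte-like cells, with a UMI in 56.8% of them, and at 528 to 570 CPM in monocyte/macrophage-like cells. Whether all granulocyte-like cells of day 3 were granulocytes was not tested. The Ccr2 difference of -0.38 (adjusted p = 0.01298) was lost without day 3 replicate 2 or 3, and that of Cxcr4, 0.37 (adjusted p = 0.00666) with libraries that overlapped, was lost without day 3 replicate 2. The Ccr2 call was also lost with DESeq2 (adjusted p = 0.05854) and with edgeR without the library term (0.08536). That of Cxcr4 was lost with library size alone as the scaling in edgeR (0.3788). The Ccr7 difference of 1.72 (adjusted p = 0.03395) fell to 0.37 (adjusted p = 0.7034) without day 3 replicate 1 and turned to -0.45 when cells with the highest doublet scores were removed. It also did not pass with DESeq2 (adjusted p = 0.07868) or with edgeR without the library term (0.06396). With chemokine genes allowed to shape the clusters it was 0.36 (edgeR adjusted p = 0.6143). Granulocyte-like cells numbered 13 at day 0, 437 at day 3, 37 at day 7 and 7 at day 21, so no comparison between days was made in this class.

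Ccr7, the lymph node homing receptor, was higher after injury than at day 0 in dendritic cell-like cells. At day 0 it was at 0, 0, 12.4 and 21.6 CPM in sums of 20, 10, 17 and 14 cells, with 3 UMIs in all. It was at 126, 231 and 399 CPM at day 3, at 365, 492, 449 and 602 CPM at day 7 and at 335, 34.9, 395 and 199 CPM at day 21. All of these lay above the highest day 0 library. Pooled counts, scaled by the UMIs of the class, were 27.7 times those of day 0 at day 3 (95% counting interval 9.43 to 134). They were 57.1 times (19.5 to 277) at day 7 and 29.8 times (10.0 to 145) at day 21. By edgeR's quasi-likelihood test the adjusted p was 0.002256 at day 3 and 1.491e-08 at day 7, while at day 21 the gene did not pass the filter on low counts and was not tested. Of all genes tested in this class, 29.3% differed from day 0 at day 3, 13.6% at day 7 and 2.04% at day 21, beside 4 of 4, 3 of 6 and 0 of 1 members tested. The 1 member tested at day 21, Ccr2, had an unadjusted p = 0.1777, and DESeq2 did not call it either.

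The Ccr7 counts came mainly from a mature dendritic cell-like cluster led by Ccl22 and Ccr7, in which Ccr7 averaged 2536 ± 488 CPM (9 libraries) against 51.5 ± 42.8 CPM in the conventional cluster. This cluster held 0% of dendritic cell-like cells in each of the 4 day 0 libraries, 3.25%, 6.98% and 12.7% at day 3, 11.1%, 17.02%, 12.2% and 24.0% at day 7 and 20%, 0%, 23.8% and 15% at day 21. Fscn1, another gene of mature dendritic cells, was at 0 in every day 0 library. The day 7 log2 fold change of Ccr7 against day 0 was at least 3.45 in all 17 other settings, the conventional cluster alone among them. The highest adjusted p of these settings, by edgeR or DESeq2, was 0.007962. After thinning, a Ccr7 UMI was found in 1.47% of dendritic cell-like cells at day 0, 13.2% at day 3, 20.7% at day 7 and 13.5% at day 21, against a mean of at most 0.356% of stromal-like cells in any group. At day 0 the highest Ccr7 was instead in B lymphocyte-like cells, at 747 ± 91.8 CPM (n = 4), with a UMI in 66.3% of cells. B lymphocyte-like cells numbered 153 at day 0 and at most 5 in any later group.

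Ccr1 in dendritic cell-like cells was at 39.1, 0, 12.4 and 0 CPM at day 0 and at 101, 91.3 and 85.4 CPM at day 3, apart, with a log2 fold change of 2.16 (SE 0.50, adjusted p = 0.005252). Without day 0 replicate 1 the value was 4.27 (adjusted p = 0.0006552). With chemokine genes allowed to shape the clusters it was 1.14 and no longer passed (adjusted p = 0.3759). Summed markers of granulocytes in this class moved with it, from 0 to 67.5 CPM over the day 0 libraries to 1506 to 2476 CPM at day 3, and their part in the Ccr1 values was not tested. Cxcr4 was at 26.1, 90.04, 49.4 and 21.6 CPM at day 0, at 143, 159 and 171 CPM at day 3 and at 126, 109, 124 and 85.2 CPM at day 7. The day 3 libraries lay above all of day 0 (log2 fold change 1.90, SE 0.33, adjusted p = 0.0007632), and those of day 7 overlapped it (log2 fold change 1.51, SE 0.35, adjusted p = 0.00574). With chemokine genes allowed to shape the clusters the day 7 value was 2.45 and did not pass (adjusted p = 0.0834). Ccr2 was at 521, 608, 420 and 571 CPM at day 0, at 444, 402 and 414 CPM at day 3 and at 399, 386, 327 and 330 CPM at day 7. Its log2 fold change of -0.46 at day 3 (adjusted p = 0.03976) did not pass without any 1 of the 7 libraries, and that of -0.56 at day 7 (SE 0.16, adjusted p = 0.02029) did not pass without any 1 of the 4 day 0 libraries. Neither value passed in the conventional cluster alone (edgeR adjusted p = 0.08364 and 0.1163) or with replicates 1 to 3 only (0.2341 and 0.1599). Both calls also ended with no filter on low counts (0.8389 and 0.5275) and with chemokine genes allowed to shape the clusters (0.8842 and 0.4576). The day 3 call ended with the replicate block (0.1539) and with library size alone (0.1365) too.

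In stromal-like cells Cxcl12 rose and Ackr3 fell at each time after injury. Cxcl12 was at 530, 539, 528 and 513 CPM at day 0, at 1196, 1140 and 1099 CPM at day 3, at 1181, 812, 1084 and 991 CPM at day 7 and at 1634, 1250, 1667 and 1622 CPM at day 21. Each later library exceeded all of day 0, and the log2 fold changes were 1.21 (SE 0.08, adjusted p = 3.068e-08), 0.96 (SE 0.12, adjusted p = 2.365e-05) and 1.58 (SE 0.10, adjusted p = 5.165e-07). Ackr3 was at 446, 385, 421 and 428 CPM at day 0, at 153, 182 and 182 CPM at day 3, at 122, 83.9, 130 and 90.02 CPM at day 7 and at 258, 222, 271 and 170 CPM at day 21. Every later library lay below all of day 0, with log2 fold changes of -1.20 (SE 0.10, adjusted p = 2.712e-07), -1.97 (SE 0.15, adjusted p = 4.216e-07) and -0.84 (SE 0.14, adjusted p = 0.0004644). In this class 66.1% of genes tested differed from day 0 at day 3, 53% at day 7 and 32.9% at day 21, beside 5 of 5, 5 of 6 and 2 of 2 members tested. The share of cells with a Cxcl12 UMI after thinning was 42.6% at day 0, 69.3% at day 3, 60.3% at day 7 and 65.4% at day 21, and that with an Ackr3 UMI 37.9%, 24.3%, 14.996% and 23.7%. Unthinned, the Ackr3 share was 61.6%, 88.1%, 48.6% and 66.1%, while median UMIs per cell were 5174, 34802, 12416 and 11876.

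These directions were also found within a cluster present on all days. At day 0, 89.4% of stromal-like cells were in a cluster led by Myoc and Gsn, at day 3, 91.4% were in one led by Prg4 and Lcn2, and a cluster led by Pi16 and Sfrp4, genes of adventitial fibroblasts, held 10.3% at day 0, 4.3% at day 3, 40.1% at day 7 and 69.4% at day 21. In the Pi16/Sfrp4 cluster alone the log2 fold change of Cxcl12 was 2.98 (adjusted p = 3.885e-07), 2.47 (adjusted p = 9.57e-09) and 2.84 (adjusted p = 1.716e-08) at days 3, 7 and 21, above the values of the whole class. That of Ackr3 in the same cluster was -0.94 (adjusted p = 0.003432), -1.99 (adjusted p = 7.587e-09) and -1.84 (adjusted p = 9.928e-07). The cluster held only 118 cells at day 0 and 35 at day 3 over all libraries of the group. Cxcl12 averaged 1868 CPM in the Chl1 cluster, 1435 CPM in the Pi16/Sfrp4 cluster, 1309 CPM in the Prg4/Lcn2 cluster and 720 CPM in the Myoc/Gsn cluster, and Ackr3 averaged 352 CPM in the Pi16/Sfrp4 cluster, 327 CPM in the Myoc/Gsn cluster and 202 CPM in the Prg4/Lcn2 cluster.

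In endothelial-like cells Cxcl12 fell at each time after injury. It was at 1969, 2352, 2839 and 2323 CPM at day 0, at 336, 940 and 620 CPM at day 3, at 765, 556, 527 and 740 CPM at day 7 and at 1559, 1827, 1483 and 1177 CPM at day 21. No library after injury reached the lowest of day 0. The log2 fold changes were -1.77 (SE 0.25, adjusted p = 5.878e-05), -1.85 (SE 0.13, adjusted p = 1.16e-08) and -0.61 (SE 0.13, adjusted p = 0.004009). Ackr3 was at 110, 87.9, 90.9 and 79.4 CPM at day 0, at 22.1, 36.9 and 49.9 CPM at day 3 and at 42.6, 31.9, 41.4 and 43.8 CPM at day 7, apart from day 0, with log2 fold changes of -1.21 (SE 0.23, adjusted p = 0.0004658) and -1.18 (SE 0.14, adjusted p = 2.519e-06). At day 21 it was at 63.9, 103, 98.4 and 77.7 CPM, overlapping day 0 (log2 fold change -0.08, adjusted p = 0.7561, 95% interval -0.41 to 0.25). In this class 56.8% of genes tested differed from day 0 at day 3, 59.1% at day 7 and 25.8% at day 21, beside 3 of 4, 3 of 3 and 1 of 3 members tested.

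The endothelial-like class also changed its make-up. A cluster led by Timp4 and Gpihbp1, genes of capillaries, held 87.7% of its cells at day 0 and 49.7% at day 21, and one led by Plvap and Aplnr, genes of venules and activated vessels, held 93.0% at day 3 and 90.3% at day 7. Cxcl12 averaged 2124 ± 440 CPM in the first and 863 CPM in the second over all groups. The second held only 55 cells at day 0 and 80 at day 3, when the whole class held 86. In the Plvap/Aplnr cluster alone the log2 fold change of Cxcl12 was -1.49 (adjusted p = 0.009801) at day 3, -1.38 (adjusted p = 0.0003357) at day 7 and -1.08 (adjusted p = 0.07176) at day 21, and that of Ackr3 was -2.13 (adjusted p = 0.006737) at day 3 and -1.85 (adjusted p = 0.0005008) at day 7. Cxcr4 in endothelial-like cells was at 19.4, 19.3, 30.6 and 44.8 CPM at day 0 and at 47.8, 53.4, 51.0 and 55.7 CPM at day 7, all above day 0, with a log2 fold change of 0.88 (SE 0.20, adjusted p = 0.001612). It was at 9.93, 26.8 and 41.8 CPM at day 3 and at 18.8, 40.9, 51.8 and 30.5 CPM at day 21, overlapping day 0 both times. The log2 fold changes were -0.0048 (adjusted p = 0.9928, 95% interval -0.88 to 0.87) and 0.31 (adjusted p = 0.5088, 95% interval -0.37 to 0.99). In the Plvap/Aplnr cluster alone the day 7 value was 1.79 (adjusted p = 0.07644). The endothelial-like Cxcr4 level was 31.6 ± 6.0% of that in monocyte/macrophage-like cells at day 7, whereas summed monocyte and macrophage markers reached 1.55 ± 0.54%. At day 3 the gap was narrower, with 12.3 ± 6.61% for Cxcr4, from 4.99% in the lowest library, and 5.89 ± 0.64% for the markers.

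**Figure D3:**
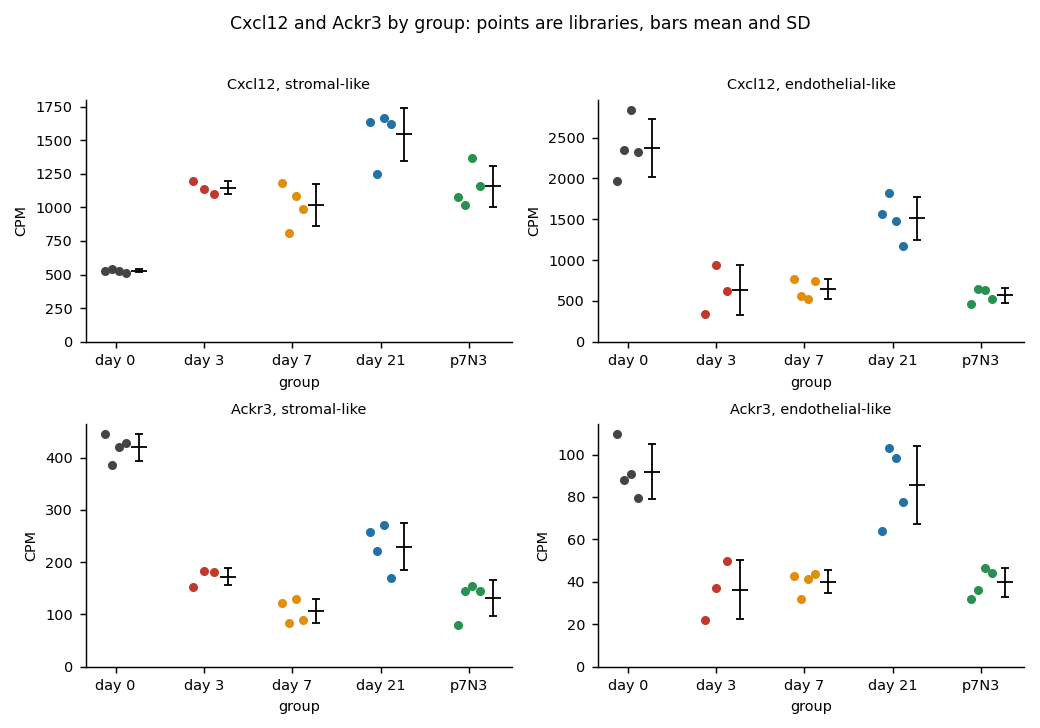
Levels (CPM) of Cxcl12 and Ackr3 in stromal-like and endothelial-like cells by group, with points for libraries and bars for the mean and SD. After injury Cxcl12 lies above day 0 in stromal-like cells and below it in endothelial-like cells, and Ackr3 lies below day 0 in stromal-like cells at all 3 times.

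Leukocyte receptors were also counted in stromal-like sums after injury. Ccr1 was at 0 in all 4 day 0 libraries and at 17.8, 13.0 and 21.1 CPM at day 3, at least 33.5-fold higher against 3 UMIs over the group, and at least 6.46-fold higher at day 7. Ccr2 had 3 UMIs at day 0 and was at 24.7, 27.9 and 26.1 CPM at day 3. The ratio of its pooled counts, scaled by the UMIs of the class, was 53.4 (95% counting interval 18.2 to 259) at day 3 and 12.4 (4.21 to 60.5) at day 7. Cxcr4 was at 0.472, 1.28, 1.64 and 0 CPM at day 0 and at 14.7, 14.6 and 18.8 CPM at day 3 (log2 fold change 4.31, SE 0.40, adjusted p = 6.693e-07, or 5.11 without day 0 replicate 3). Markers of monocytes and macrophages moved with these receptors, and their part in these values was not tested. All 14 markers of that list were in the files, 11 of them had a UMI in every day 0 library and 14 in every library of each later group, and none was at 0 throughout. Their summed level in stromal-like cells ranged from 157 to 250 CPM at day 0, 1821 to 1970 CPM at day 3, 584 to 977 CPM at day 7 and 283 to 403 CPM at day 21, and Ptprc, the common leukocyte gene, from 0 to 2.56 CPM, 18.0 to 24.9 CPM, 5.46 to 10.2 CPM and 1.05 to 4.22 CPM.

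Set against the monocyte/macrophage-like level of the same libraries at day 3, the stromal-like level was 8.81 ± 1.54% for Ccr1, 4.79 ± 0.48% for Ccr2, 7.66 ± 0.34% for Cxcr4 and 6.70 ± 0.22% for the marker sum (SD, n = 3). At day 7 these were 3.36%, 2.14%, 3.47% and 2.01%. A Ccr2 UMI was found in 53.9% of stromal-like cells at day 3, which had a median of 34802 UMIs each, and in 3.63% after thinning. Ccr2 in endothelial-like cells was at 5.98, 3.52, 1.80 and 0 CPM at day 0 and at 16.5, 29.3 and 36.0 CPM at day 3 (log2 fold change 3.32, SE 0.51, adjusted p = 0.0001063, or 4.02 without day 0 replicate 1), which was 5.00 ± 1.89% of the monocyte/macrophage-like level beside 5.89 ± 0.64% for the marker sum. The marker sum in endothelial-like cells ranged from 231 to 482 CPM at day 0 and from 1402 to 1822 CPM at day 3, and 11 of 14 and 14 of 14 markers had a UMI in every library.

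The classes that held the UMIs of each member shifted between days along with cell numbers. Endothelial-like cells held 75.5 ± 5.93% of the Cxcl12 UMIs at day 0 and 6.47% at day 7, whereas stromal-like cells held 20.6 ± 6.8% at day 0, 87.8 ± 2.65% at day 3, 68.9 ± 6.57% at day 7 and 62.5 ± 8.19% at day 21. Of the Ccr2 UMIs, dendritic cell-like cells held 43.1% and monocyte/macrophage-like cells 39.1% at day 0, and monocyte/macrophage-like cells held 82.3% at day 3. Of the Ccr7 UMIs, B lymphocyte-like cells held 82.1 ± 7.31% at day 0 and dendritic cell-like cells 77.0% at day 3 and 87.9% at day 7. Granulocyte-like cells held 64.1 ± 8.75% of the Cxcr2 UMIs at day 3. Ackr3 stayed mainly stromal, with 70.3% of its UMIs in stromal-like cells at day 0 and 52.7% to 87.7% in the other groups.

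Over all cells of a library, Ccr2 averaged 27.5 CPM at day 0, 297 CPM at day 3, 82.4 CPM at day 7 and 26.4 CPM at day 21, and Ccr1 averaged 11.3, 119, 26.0 and 11.3 CPM. Cxcr4 averaged 29.8, 125, 46.8 and 16.8 CPM, Cxcr2 averaged 1.298, 12.4, 1.18 and 0.484 CPM, Cx3cr1 averaged 8.88, 13.9, 15.2 and 8.08 CPM, and Ccr7 averaged 18.7, 13.0, 19.3 and 4.02 CPM. Cxcl12 averaged 929, 428, 563 and 728 CPM, and Ackr3 averaged 208, 64.8, 54.1 and 127 CPM. These whole-site means follow both the make-up of the cells recovered and the levels in each class, which cannot be told apart in them.

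**Figure D4:**
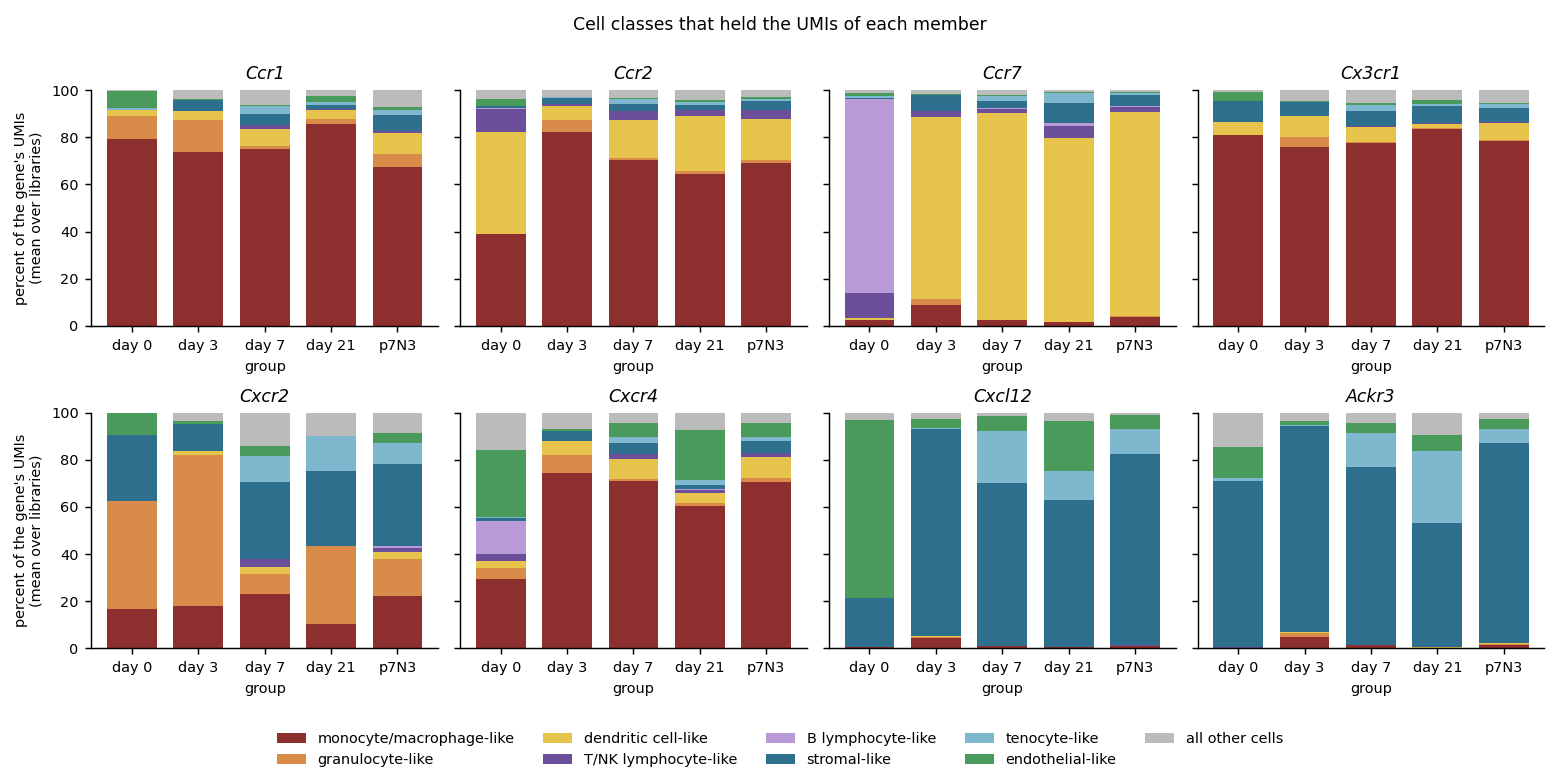
Share of each member's UMIs held by each cell class (percent, mean over libraries) by group. For Cxcl12 the largest part passes from endothelial-like cells at day 0 (75.5%) to stromal-like cells at day 3 (87.8%).

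Other receptors and the ligands of these receptors were counted from a list of 17 other chemokine receptors and one of 17 ligands in the files. Of all genes tested in monocyte/macrophage-like cells, 25.7% were higher and 28.1% lower than day 0 at day 3, 18.3% and 17.1% at day 7, and 12.9% and 14.2% at day 21. In monocyte/macrophage-like cells at day 3, of 3 other receptors tested 2 were higher and 1 lower than at day 0, and of 13 ligands 10 were higher and none lower (median log2 fold change 1.70, all genes 0.00). Ccrl2, an atypical receptor that binds chemerin, was at 133 CPM at day 3 and 25.7 CPM at day 0 (log2 fold change 2.43, adjusted p = 2.956e-05). At day 7, 2 of 4 receptors were higher and 1 lower and 8 of 15 ligands higher and 3 lower, and at day 21 the counts were 2 and 1 of 3 and 5 and 4 of 12. Ccl8, a CC chemokine, was at 4386 ± 919 CPM at day 21 and 1368 ± 530 CPM at day 0 in this class (log2 fold change 1.80, adjusted p = 4.879e-06). In dendritic cell-like cells the shares over all genes were 13.5% higher and 15.8% lower at day 3, 6.9% and 6.68% at day 7, and 0.807% and 1.24% at day 21. There neither of 2 receptors tested was called at day 3, 1 of 3 was higher at day 7 and none was tested at day 21. Ligands there were higher in 3 and lower in 2 of 11 at day 3, higher in 2 and lower in 2 of 11 at day 7, and lower in 1 of 7 at day 21. Ccl5 was at 16.3 CPM at day 0 and 1022 ± 312 CPM at day 7 in these cells (log2 fold change 5.92, adjusted p = 3.938e-09).

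In stromal-like cells, of all genes tested 33.3% were higher and 32.9% lower at day 3, 27.5% and 25.4% at day 7, and 16.8% and 16.2% at day 21. At day 3, 14 of 15 ligands tested were higher and none lower (median log2 fold change 3.71, all genes 0.00), and 4 of 6 other receptors were lower and 2 higher (median -3.77). Summed monocyte and macrophage markers in these stromal-like sums ranged from 157 to 250 CPM at day 0 and from 1821 to 1970 CPM at day 3. Their part in the ligand values was not tested. Cxcl5, a CXCR2 ligand, was at 1262 ± 547 CPM at day 3 and 1.82 CPM at day 0 (log2 fold change 9.64, adjusted p = 4.665e-10), and Ackr4, which scavenges CCL19 and CCL21, was at 0.0713 and 10.9 CPM (-6.88, adjusted p = 1.247e-07). At day 7, 13 of 17 ligands were higher and 1 lower, with 2 receptors higher and 4 lower of 6, and at day 21, 5 of 12 ligands were higher and 2 lower, with 4 of 4 receptors lower. The scavenger Ackr2 was at 15.1 CPM at day 0, 0.531 CPM at day 7 (-4.79, adjusted p = 1.163e-06) and 2.30 CPM at day 21 (-2.76, adjusted p = 1.125e-05). In endothelial-like cells Ackr1, the venular chemokine carrier, was at 17.4 ± 13.2 CPM at day 0, 309 ± 153 CPM at day 3 (log2 fold change 4.23, adjusted p = 2.468e-06), 283 CPM at day 7 (4.01, adjusted p = 1.092e-06) and 226 CPM at day 21 (3.71, adjusted p = 2.244e-05). It was 1 of 2 other receptors tested in this class each time and the only receptor called, and the ligands there were higher in 12 of 13, 6 of 9 and 4 of 10 at days 3, 7 and 21, with none lower. Of all genes tested in this class 29%, 29.8% and 13.6% were higher. The class held 86 cells at day 3. Its summed monocyte and macrophage markers ranged from 231 to 482 CPM at day 0 and from 1402 to 1822 CPM at day 3. Their part in the ligand values was not tested.

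The same lists were counted between lineages. Against monocyte/macrophage-like cells, the share of all genes tested that was higher and lower was 15.5% and 10.3% for granulocyte-like, 23.3% and 23.4% for dendritic cell-like and 40% and 37% for stromal-like cells. Against stromal-like cells it was 28.6% and 29.9% for endothelial-like cells. In granulocyte-like against monocyte/macrophage-like cells at day 3, 2 of 5 other receptors were higher and 1 lower, with Cxcr1, the other CXCL receptor of neutrophils, at 20.7 and 0.415 CPM (log2 difference 5.85, adjusted p = 2.947e-09), and 7 of 15 ligands were higher and 5 lower, with Cxcl3 at 1158 and 84.1 CPM. In dendritic cell-like against monocyte/macrophage-like cells at day 7, 2 of 5 receptors were higher and 1 lower and 2 of 15 ligands higher and 12 lower, among them Xcr1, the receptor of cross-presenting dendritic cells, at 18.3 and 0.142 CPM. In stromal-like against monocyte/macrophage-like cells the counts were 1 and 4 of 5 receptors and 6 and 10 of 17 ligands, and in endothelial-like against stromal-like cells 2 and 1 of 4 and 1 and 10 of 17.

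With p7N3, no member passed the test against day 7 in any of the 5 classes tested. This held for 30 tests of members by edgeR's quasi-likelihood test, of which 5 had an unadjusted p under 0.05 and the lowest adjusted p was 0.4514, and DESeq2 called 0 of them. Of all genes tested 0% passed in each class with edgeR, while DESeq2 called 11, 1, 50, 5 and 1 in monocyte/macrophage-like, dendritic cell-like, stromal-like, endothelial-like and granulocyte-like cells. In that order, 792 of 10879, 478 of 7133, 1214 of 13037, 835 of 9812 and 60 of 1584 genes had an unadjusted p under 0.05 by edgeR. Among members these were 0 of 8, 2 of 6, 2 of 8, 1 of 4 and 0 of 4. None of the listed other receptors or ligands passed either.

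Ccr2 in monocyte/macrophage-like cells was at 379, 326, 455 and 287 CPM with p7N3 and at 356, 303, 272 and 232 CPM at day 7, which overlapped (log2 fold change 0.29, SE 0.14, adjusted p = 0.7114, 95% interval -0.02 to 0.60). Ccr1 there differed by 0.21 (95% interval -0.07 to 0.49), Cxcr4 by 0.22 (-0.05 to 0.49) and Cx3cr1 by -0.11 (-0.39 to 0.17). Ccr7 in dendritic cell-like cells was at 405, 456, 241 and 397 CPM with p7N3 and 365, 492, 449 and 602 CPM at day 7 (-0.39, adjusted p = 0.7244, 95% interval -0.76 to -0.02 before adjustment). Cxcl12 in stromal-like cells was at 1079, 1021, 1371 and 1160 CPM with p7N3 (log2 fold change 0.20, adjusted p = 0.6554, 95% interval -0.09 to 0.49), and Ackr3 at 79.4, 145, 154 and 144 CPM (0.31, adjusted p = 0.6744, 95% interval -0.17 to 0.79). In endothelial-like cells Cxcl12 was at 467, 649, 639 and 520 CPM (-0.21, adjusted p = 0.7201, 95% interval -0.50 to 0.09). The groups overlapped for each of these genes.

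In granulocyte-like cells Cxcr2 was at 25.9, 141, 142 and 11.2 CPM with p7N3 and at 219 and 58.6 CPM in the 2 day 7 libraries with at least 10 such cells (log2 fold change -0.55, SE 0.95, 95% interval -2.73 to 1.63). This interval spans changes of either direction, and the libraries of each group differed widely among themselves. Retnlg, a neutrophil gene, ranged from 74.0 to 1224 CPM over the p7N3 libraries of this class. A Cxcr2 UMI was found in 26.0 ± 22.5% of its cells with p7N3, in 43.2 ± 23.8% at day 7 (n = 2) and in 57.7 ± 9.64% at day 3. The p7N3 libraries ranged from 5.0% to 52.4% and overlapped those of day 7 at 26.3% and 60.0%. Whether all p7N3 cells of this class were granulocytes was not tested, so its name is less certain there. With p7N3, stromal-like cells held 81.3 ± 3.77% of the Cxcl12 UMIs and dendritic cell-like cells 86.3% of those of Ccr7.

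**Figure D5:**
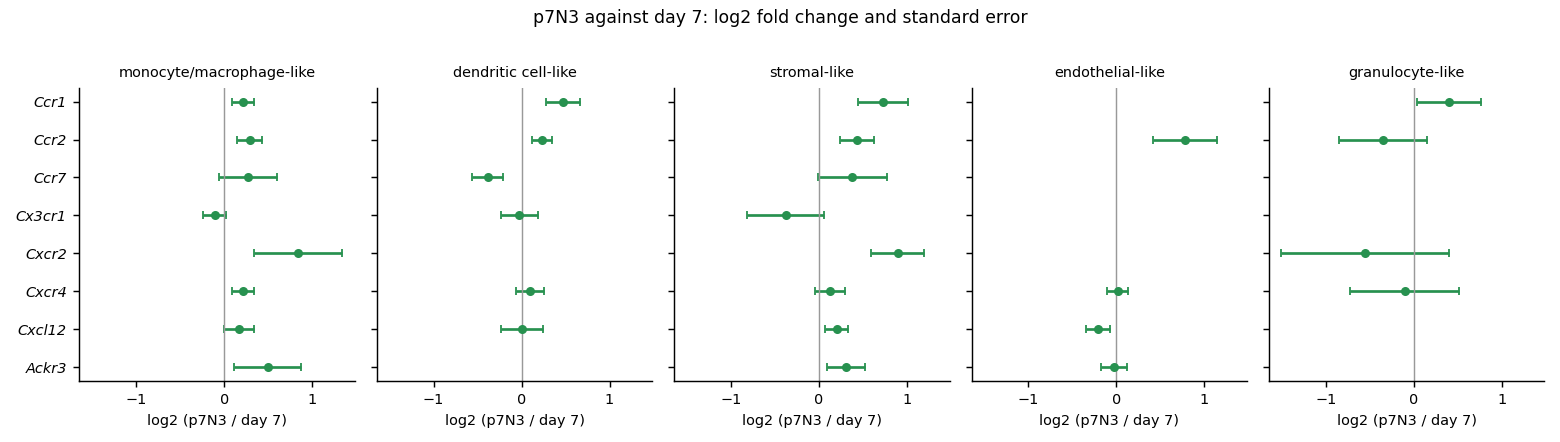
Log2 fold change of each member tested between p7N3 and day 7 (points) with its standard error (bars), in 5 cell classes. No member passed the test in any class.

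The genes whose pattern was most like each member were ranked by Pearson's r over 51 class and group means, which share libraries, depth and class markers, among 13566 genes. Among the genes most like Ccr2 were Fcer1g (r = 0.955) and Itgb2 (0.955), which are genes of leukocyte Fc receptors and integrins. Ccr1 was most like C5ar1 (0.953), Cx3cr1 most like C1qc (0.897), Ccr7 most like Pdcd1lg2 (0.883) and Cxcr2 most like Il1f9 (0.942). Cxcr4 was most like Plcl2 (0.889), Cxcl12 most like Pcdh19 (0.877) and Ackr3 most like Tshz2 (0.911).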

How the data were processed

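The deposited files hold UMI counts per gene and cell for each library. Per the study's methods and the labels, the authors made these counts with Cell Ranger from 10x Genomics v2 3' libraries, aligned to mm10 in the methods. The labels name GRCh38 for 15 libraries and mm10 for the 4 libraries that are replicate 4, although all files carry mouse gene identifiers, and comparisons were repeated with replicates 1 to 3 only. The file of day 0 replicate 1 was not filtered for cells, and the others were. Seurat was named by the labels, and its version is not given in the sources used here.

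Cells with under 500 genes or over 25% mitochondrial UMIs were removed. Clusters were found by leidenalg 0.10.2 through scanpy 1.11.5 (2000 variable genes without 70 chemokine and receptor genes, 30 principal components, 20 neighbours, resolution 0.8, 33 clusters). A cluster was named from marker lists (mean z of at least 0.75, at least 3 markers in 25% of cells). Leading genes were those in at least 50% of cells, and they could remove a name only from clusters with few UMIs per cell. These thresholds were set after the clusters were seen. With leading genes in 25% of cells, 3 clusters had more markers of another type than of their own among them, a check that did not change names. No doublet caller was used in the reported values, and removing the 3.9% of cells with the highest doublet scores was an alternative. UMIs were summed per library and class with at least 10 cells. edgeR 4.0.16 (R 4.3.3) was used for the quasi-likelihood test with TMM factors and filterByExpr, with Benjamini-Hochberg adjustment over all genes tested and a threshold of 0.05. DESeq2 1.42.0 was an alternative. Intervals of fold changes use the t distribution of that test, and ratios with under 4 UMIs in a group have exact binomial intervals. These intervals cover counting error only, and so does the floor of 3 counts over a group. Shares of cells were recomputed after thinning to 1500 UMIs, which left out 298 cells. The test was checked on simulated counts. Replicate numbers are shared between groups, but in none of 17 comparisons did every pair of same-numbered libraries deviate together (r over 0.1), and in 13 no pair did, so the numbers were taken not to pair libraries.

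The named genes were all 8 members, plus those of the lists of other receptors and ligands that passed the threshold, did not overlap, reached 10 CPM and had the largest changes (at most 2 per list). Not every gene that met this rule is reported here. Likeness was ranked by Pearson's r of log2(CPM + 1). The members and lists were chosen with earlier results of these data known. Gene positions are from GENCODE vM21.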

Additional observations from a re-analysis of the deposited data

Results flagged for a closer look

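Of 72 sets of 4 libraries examined, 5 held a library whose gap to the nearest of the others exceeded the critical share of the whole range in Dixon's test, which chance gives in about 1 in 20 sets. Ackr3 in stromal-like cells was at 79.4 CPM in p7N3 replicate 1 and at 144 to 154 CPM in the others. Ccr2 in monocyte/macrophage-like cells was at 282 CPM in day 21 replicate 1 and at 172 to 188 CPM in the others. Cxcl12 in stromal-like cells was at 1250 CPM in day 21 replicate 2 and at 1622 to 1667 CPM in the others. Cxcr4 was at 49.9 CPM in granulocyte-like cells of p7N3 replicate 1, against 258 to 284 CPM, and at 162 CPM in monocyte/macrophage-like cells of day 21 replicate 3, against 102 to 108 CPM. Whether all granulocyte-like cells of that p7N3 library were granulocytes was not tested.

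Some genes moved in opposite directions in different classes against the same day, with every library of the later group on that side of day 0 in each class, and the difference between classes was not tested. The log2 fold change of Cxcl12 was -1.77 in endothelial-like and 1.21 in stromal-like cells at day 3, -1.85 and 0.96 at day 7, and -0.61 and 1.58 at day 21. That of Ccr2 at day 7 was -0.56 in dendritic cell-like cells, 1.23 in monocyte/macrophage-like cells and 3.62 in stromal-like cells. The dendritic cell-like call was lost without any 1 of the day 0 libraries and in the conventional cluster alone (edgeR adjusted p = 0.1163). The stromal-like value rests on 3 UMIs at day 0 and moved with markers of monocytes and macrophages.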

How the results depend on the processing

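Each of 109 results was recomputed under up to 14 kinds of setting, giving 1634 values, of which 1554 kept direction and side of the threshold, 61 lost the call, 13 gained one and 6 turned sign with a call on at least 1 side. Sign changes between values that were not called are counted as kept. Of 57 called results, 40 kept the call under every setting. The values that turned sign were the day 3 monocyte/macrophage-like changes of Ccr1 (-0.39), Ccr2 (-0.062) and Cxcr4 (-0.17) in the Ccl8/Folr2 cluster alone, which is a smaller set of cells, Ccr7 in granulocyte-like against monocyte/macrophage-like cells (-0.45, doublets removed), Ccr2 in dendritic cell-like against monocyte/macrophage-like cells (-0.072, chemokine genes allowed as variable genes), and Cx3cr1 in endothelial-like against stromal-like cells (-1.38 to 0.53 when 1 library was left out, the former without day 7 replicate 2). Settings on 1 cluster, library size alone and replicates 1 to 3 were chosen after seeing the data.

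The number of members called against day 0 moved as follows. In monocyte/macrophage-like cells it was 1 at day 3 in the Ccl8/Folr2 cluster alone, and at day 21, from 1, it was 2 with no filter on low counts or in that cluster and 0 with chemokine genes allowed or with replicates 1 to 3 only. In dendritic cell-like cells it was 2 at day 3 with chemokine genes allowed or in the conventional cluster alone, 1 at day 7 with chemokine genes allowed and 1 at day 21 with no filter. In stromal-like cells it was 2 at day 3 in the Pi16/Sfrp4 cluster alone, and in endothelial-like cells 5 at day 3 with no filter and 0 at day 21 in the Plvap/Aplnr cluster alone. All genes called moved too. In monocyte/macrophage-like cells at day 21 they went from 1826 to 2211 (no filter), 1773 (chemokine genes allowed) and 1147 (replicates 1 to 3). In dendritic cell-like cells they went from 595 to 303 at day 3 and 679 to 191 at day 7 with chemokine genes allowed. There they were 572 at day 3 in the conventional cluster, and went from 38 to 216 at day 21 with no filter. In endothelial-like cells at day 3 they went from 5011 to 5947 with no filter. Apart from the cluster settings and the filter, which change the cells or genes tested, the cause was not tested. Leaving out 1 library at a time gave 4 to 5, 2 to 4 and 0 to 2 members at days 3, 7 and 21 in monocyte/macrophage-like cells, 3, 2 to 3 and 0 to 1 in dendritic cell-like cells, 5 to 7, 3 to 6 and 2 in stromal-like cells, 3 to 4, 3 and 1 in endothelial-like cells, 0 for p7N3, and 4 to 6, 5, 7 to 8 and 3 to 4 for the lineage comparisons in the order of granulocyte-like, dendritic cell-like, stromal-like and endothelial-like cells. All genes called with 1 library left out are not reported here, so these ranges cannot be set against them. The replicate numbers were taken not to pair libraries, although 3 of 4 same-numbered pairs had r over 0.1 for p7N3 against day 7 in stromal-like cells. That check could not exclude partial pairing. The replicate block gave 2 members in monocyte/macrophage-like cells at day 21 (Ccr2 at 0.73, adjusted p = 0.01231) and 3 in dendritic cell-like cells at day 3, and 4, 5, 7 and 3 members were called without the block in the lineage comparisons. All genes called with the block were 1721 and 446, against 1826 and 595. Without the block they were 2712, 4157, 9359 and 6980 in the lineage comparisons, against 2766, 4589, 9826 and 7311.

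Counts of all genes called moved more. In single clusters they were 1771, 1404 and 660 at days 3, 7 and 21 for Ccl8/Folr2 (3268, 3366 and 1826 in the class), 1137, 1872 and 1921 for Pi16/Sfrp4 (6875, 6492 and 3378) and 1009, 998 and 103 for Plvap/Aplnr (5011, 5343 and 2288). For p7N3 DESeq2 called 11, 1, 50, 5 and 1 and edgeR with no filter 30, 85, 0, 26 and 43 genes, against 0. With replicates 1 to 3 only, edgeR called 9 genes in monocyte/macrophage-like cells and 0 in the other classes. In the Pi16/Sfrp4 cluster alone it called 12. With library size alone as the scaling, the median of all genes moved to -0.23 and -0.14 in monocyte/macrophage-like cells at days 7 and 21, 0.18 in dendritic cell-like cells and -0.16 in endothelial-like cells at day 3, and -0.30, 0.40 and 0.17 in the granulocyte-like, stromal-like and endothelial-like lineage comparisons. The percent of calls that were higher went from 51.7 to 31.4 and from 47.7 to 31.2 in monocyte/macrophage-like cells at days 7 and 21, from 46.1 to 62.1 in dendritic cell-like cells at day 3, and from 60.1 to 27.7, 52.0 to 67.8 and 48.8 to 61.0 in those lineage comparisons. Depth limited the day 0 dendritic cell-like sums of 10 to 20 cells, among others.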

Other observations

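Ccr7 also marked T/NK lymphocyte-like cells, which carry it for recirculation. It was at 323 ± 102 CPM in 3 day 0 libraries, 48.2 ± 38.5 CPM at day 7 and 47.6 ± 25.6 CPM with p7N3, values for which no test was run. Ccr2 in the same class was at 254 ± 117 CPM at day 0, 400 ± 87.7 CPM at day 7 and 457 ± 106 CPM with p7N3.

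Satellite cell-like cells, the muscle stem cells, held members of the CXCL12 axis. At day 0 they had Cxcr4 at 66.6 ± 14.3 CPM and Ackr3 at 185 ± 20.1 CPM (n = 4), and at day 21 the levels were 89.1 ± 68.6 and 127 ± 61.2 CPM (n = 3). Ackr3 was highest in lymphatic endothelial-like cells at day 21, at 306 ± 95.5 CPM (n = 4), above a mean of 230 ± 45.2 CPM in stromal-like cells that it overlapped.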
